A study of Mus musculus with 32 samples.

Results

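Tekt1, Oxtr, Espn, Prr32 and Lppr4 were among the genes with the strongest change in brown fat when ChREBPβ was lacking. They were chosen by their log2 difference in that comparison, from the 5 highest and 5 lowest log2 differences between ChREBPβ KO and WT arrays among called genes, so their differences there are the values that chose them and are given here as a description, with no test. The log2 differences of the total ChREBP-KO line did not rank the genes, but its arrays shared the estimate of spread behind the calls. The question asked of that line was whether each gene moved the same way or the opposite way when both isoforms were absent. All 5 stayed called in a limma fit of the total line alone, where the highest adjusted p was 0.0186, for Prr32. The 5 genes are 5 of 24523 gene names measured, and they are covered by 7 of 37306 probes. An additional Espn probe on the array was too dim to be kept.

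RNA from brown adipose tissue of mice was hybridised to 32 Agilent 1-colour arrays, 8 for each of 4 groups. The groups were total ChREBP KO mice (labelled ChREBPtotal_KO), which lack ChREBPα and ChREBPβ, WT mice of that line (ChREBPtotal_WT), ChREBPβ KO mice (ChREBPbeta_KO) and WT mice of that line (ChREBPbeta_WT). Every mouse was fasted for 24 hours and then refed for 18 hours with food and 20% glucose in the drinking water. The study used C57BL6/J males. The deletion was in every tissue in both lines, and ChREBPβ KO mice carried a CRISPR/Cas9 deletion of exon 1b of Mlxipl, the gene that encodes both isoforms. The age of the mice is not given in the sources used here.

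ChREBP is a glucose-responsive transcription factor that pairs with Mlx and binds E-box-like elements near genes of glycolysis and fatty acid synthesis. ChREBPα is the full-length form, held in check at low glucose, and ChREBPβ is a shorter form transcribed from its own promoter, which ChREBPα can activate. In brown fat the pathway feeds glucose carbon into lipid that the tissue burns or stores. The 5 genes are not textbook members of that pathway. Tekt1 encodes a tektin, a filament protein of the microtubules of cilia and flagella. Oxtr encodes the receptor for oxytocin, which signals through Gq. Espn encodes espin, a protein that bundles actin filaments in microvilli and in the stereocilia of hair cells. Lppr4, now named Plppr4, encodes a membrane protein of the lipid phosphate phosphatase family known from synapses. Prr32 encodes a proline-rich protein.

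Probes of 4 of the genes are shown first, because a probe stands for its gene in all values that follow. Each line gives the opening 30 bases of the 60-base probe in the sense of the transcript, from the array files, with no part capitalised.
Tekt1 A_55_P2132024: catccgcgcagaggccatctgctgatagga
Oxtr A_55_P2013203: ctgaaatgcctgctttaccagctgctgctc
Espn A_52_P469345: aagagcctgaagccgacaccgcagagcaag
Prr32 A_51_P477481: ttcacagtcacgaggtcctccatatatccc
In mouse build mm9 the 60-base probes lie on the minus strand at chr11:72158231-72158290 for Tekt1, chr6:112423686-112423745 for Oxtr and chr4:151502532-151502591 for Espn. The Prr32 probe lies on the plus strand at chrX:42445458-42445517. The files give these positions without an exon, so none is stated here.

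Espn had 2 further probes, which overlap each other by 18 bases and so are not independent readings of the transcript. A_55_P1997651, the brightest Espn probe, lies at chr4:151495230-151495289 and A_66_P108003 at chr4:151495188-151495247. The end of the former and the start of the latter are shown, with the shared 18 bases in capitals.
A_55_P1997651, last 30 bases: atcttgaagaagGGGGAGATCCCTAAGTAA
A_66_P108003, first 30 bases: GGGGAGATCCCTAAGTAAtaggagtctctc

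Values are normalised log2 intensities of a probe, on a scale where a difference of 1 is a doubling, and a level of 1 probe cannot be set against that of another probe. Per array, 64.4% to 71.1% of spots exceeded background clearly. Ucp1, the uncoupling protein that defines brown adipocytes, was bright in every group, with means from 18.43 to 18.53. Mlxipl, read by its brightest probe, was lower by 2.48 in total KO and by 1.50 in ChREBPβ KO. Its other probes gave -0.77 and 0.14 in total KO and -1.14 and -0.08 in ChREBPβ KO, so the probes did not rank the lines alike. The probes were not assigned to an isoform here. In males lacking ChREBPβ the study reported more ChREBPα mRNA and protein in brown fat. The mean log2 level of 10 skeletal muscle markers separated the lines, lying between 12.5 and 16.1 in the total line and between 5.54 and 11.9 in the ChREBPβ line. The mean of 7 measured liver markers spread from 7.29 to 13.8 over single arrays.

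All 5 genes differed between total KO and WT in the limma fit at an adjusted p under 0.05, 2 higher and 3 lower, beside 44.1% of all genes called in that comparison. The KO and WT arrays did not overlap for 4 of the 5, beside 16.6% of all genes. In the ChREBPβ line, where all 5 had to be called to be chosen, 2.7% of all genes were called, and 4 of the 5 did not overlap, beside 0.432% of all genes. The choice also required every KO array on one side of the WT mean, so the lack of overlap there follows largely from the choice. Tekt1 and Oxtr fell in total KO and had been chosen as low in ChREBPβ KO, and Lppr4 and Prr32 rose in total KO and had been chosen as high. Espn fell in total KO and was high in ChREBPβ KO, so 4 genes moved the same way and 1 the opposite way. The median absolute log2 difference of all genes in total KO was 0.17, and the smallest among the 5 genes was 0.93. A call with a difference of at least that size was reached by 4.11% of all genes.

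**Figure D1:**
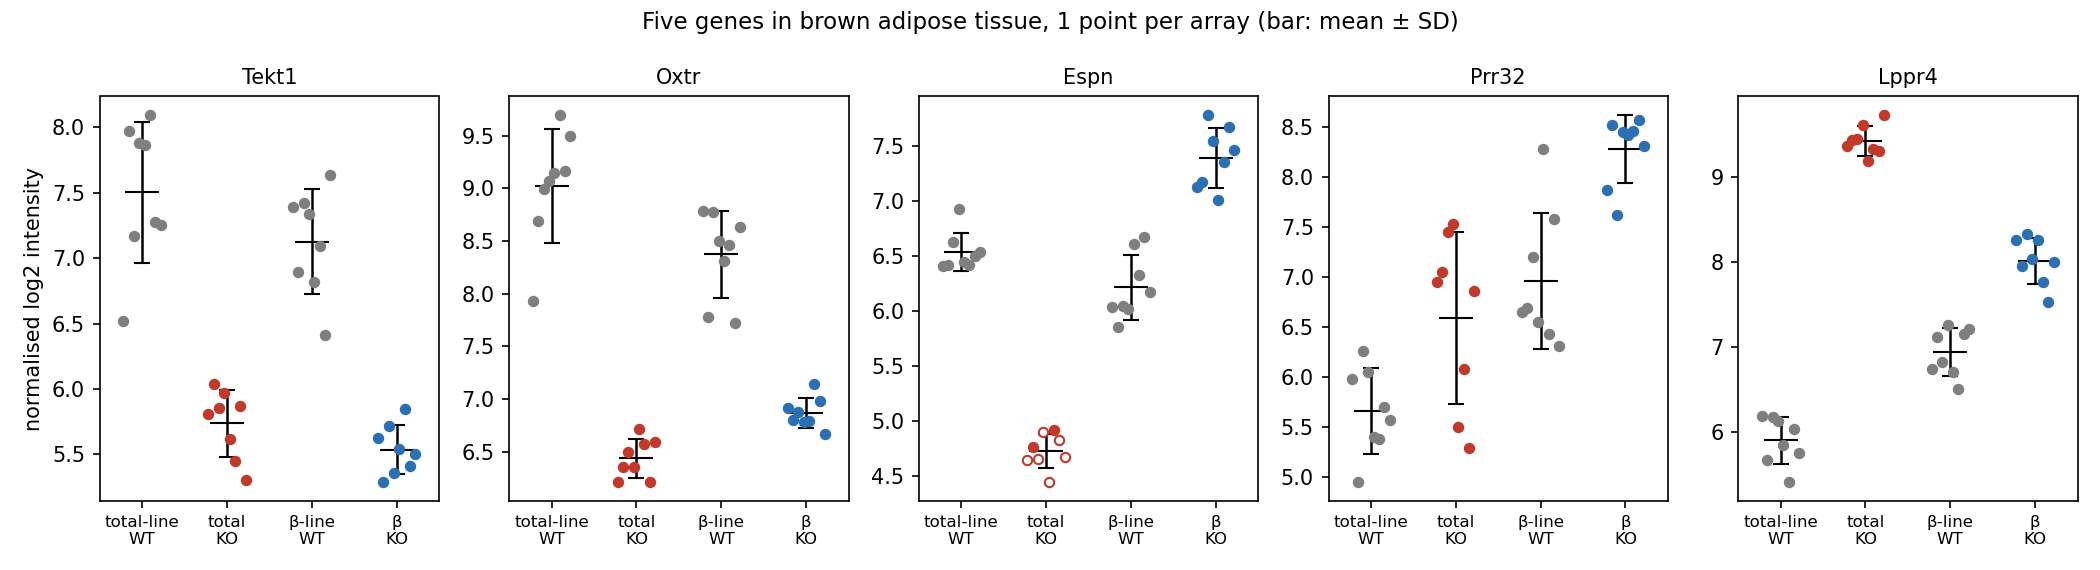
Normalised log2 intensity (vertical axis, its own range in each panel) of the brightest probe of each gene on every array, by group, with filled points for arrays where the probe was well above background, open points where it was not, and bars for mean ± SD of 8 arrays. Tekt1 and Oxtr were low in both KO groups, Lppr4 was highest in total KO, and Espn was lowest in total KO and highest in ChREBPβ KO.

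Oxtr, the oxytocin receptor gene, ranged from 7.93 to 9.70 in total-line WT arrays, with a median of 9.11. In total KO it ranged from 6.21 to 6.71, with a median of 6.42. The lowest WT array lay 1.21 above the highest KO array. The difference was -2.59 ± 0.17 (SE) (limma adjusted p = 6.45e-14), with 8 of 8 KO arrays under the mean of their WT group. An exact permutation test over the splits of the 16 arrays gave a two-sided p of 0.000155, the smallest this design allows, and the same p was reached by Tekt1, Espn and Lppr4. In the ChREBPβ line Oxtr ranged from 7.73 to 8.79 in WT (median 8.48) and from 6.67 to 7.15 in KO (median 6.83). Those groups did not overlap either, and the difference that chose the gene was -1.50 ± 0.17, or 58.2% of the one in total KO. The KO groups of the lines overlapped at their edges, with total KO lower by 0.43 on average.

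Tekt1, the tektin gene, ranged from 6.52 to 8.10 in total-line WT (median 7.57) and from 5.30 to 6.04 in total KO (median 5.83). The groups lay 0.48 apart at their nearest arrays. The difference was -1.76 ± 0.18, a 3.40-fold lower intensity (limma adjusted p = 8.64e-10), with 8 of 8 KO arrays below the WT mean. In the ChREBPβ line it ranged from 6.41 to 7.64 in WT (median 7.21) and from 5.29 to 5.84 in KO (median 5.52). That difference was -1.59 ± 0.18, which is 90.0% of the one in total KO. The arrays of the KO groups overlapped each other, and so did those of the WT groups. The difference between the KO effects was 0.18 ± 0.25, smaller than its SE, which does not show that they were equal.

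Espn, the espin gene, gave the opposite pattern in the lines. Its brightest probe ranged from 6.41 to 6.93 in total-line WT (median 6.48) and from 4.44 to 4.92 in total KO (median 4.72). Only 2 of 8 total KO arrays were well above background, against 8 of 8 in each other group. The difference was -1.81 ± 0.11 (limma adjusted p = 1.43e-14), and no KO array reached the WT range. Since most KO arrays were at background, its size depends on how background is handled, and it was -1.03 with normexp correction and -3.35 with Agilent's processed signal. In the ChREBPβ line the same probe ranged from 5.85 to 6.68 in WT (median 6.11) and from 7.01 to 7.79 in KO (median 7.41). The difference there was 1.18 ± 0.11, a 2.26-fold higher intensity, with every KO array above every WT array. The effect in ChREBPβ KO exceeded that in total KO by 2.99 on the main scale, by 1.91 with normexp and by 4.81 with the processed signal, a description that rests on those dim arrays and contains the values used for the choice.

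The other Espn probes moved the same way as the brightest in each line. A_66_P108003, whose bases are partly shared with it, was at 6.25 ± 0.15 (SD, n = 8) in total-line WT and at 7.10 ± 0.26 in ChREBPβ KO. It was not well above background on any total KO array, and its WT level was at least 3.00-fold higher than there (limma adjusted p = 6.25e-14). A_52_P469345, which lies farther upstream in the transcript, was at 5.36 ± 0.16 in total-line WT and 5.95 ± 0.19 in ChREBPβ KO, and again on no total KO array well above background. Its level in WT was at least 1.63-fold higher than in total KO (limma adjusted p = 1.36e-09). Bounds here set the bright group's mean against, on each dim array, the higher of the probe's own signal and the lowest signal well above background. The difference on that probe in the ChREBPβ line was 0.72.

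**Figure D2:**
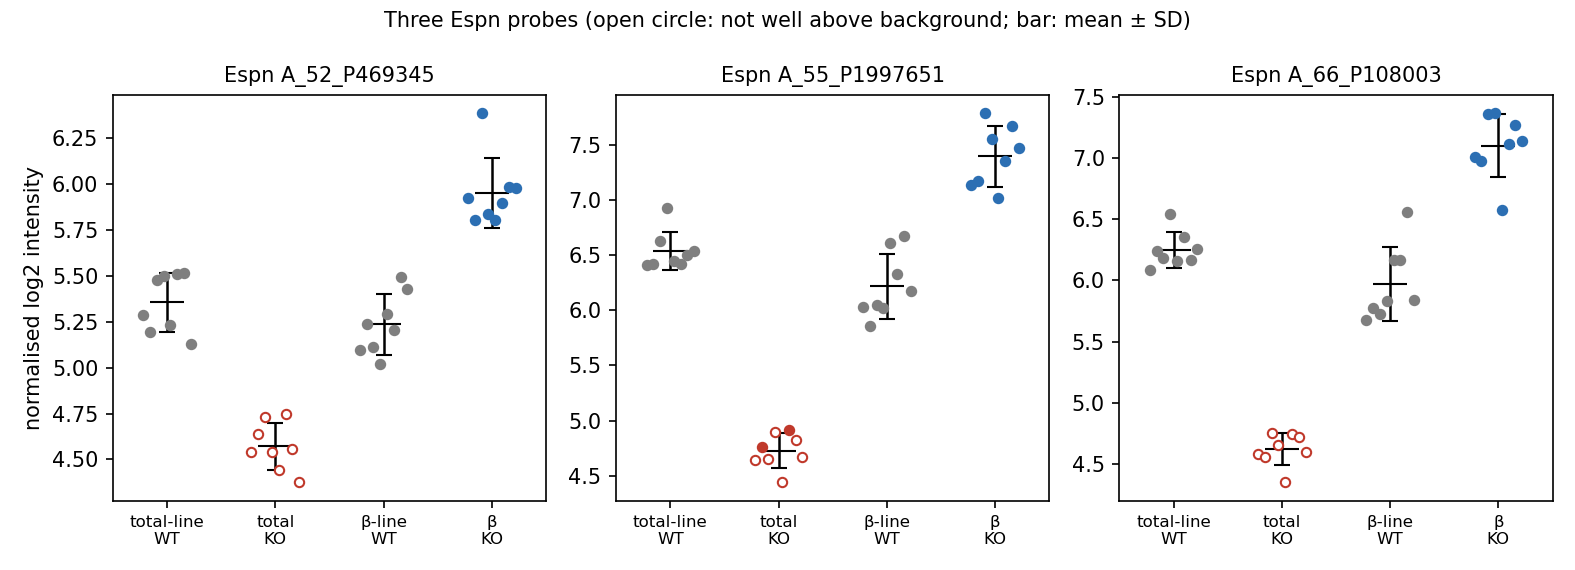
Normalised log2 intensity (vertical axis, its own range in each panel) of 3 Espn probes on every array by group, open points marking arrays where the probe was not well above background and bars showing mean ± SD of 8 arrays. On each probe total KO lay below all other groups and the ChREBPβ KO mean lay above them.

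Lppr4 had the largest change of the 5 genes in total KO. It ranged from 5.41 to 6.19 in total-line WT (median 5.95) and from 9.19 to 9.73 in total KO (median 9.40), a gap of 3.01 between the nearest arrays. The difference was 3.53 ± 0.12, an 11.5-fold higher intensity (limma adjusted p = 3.88e-21), in 8 of 8 KO arrays. In the ChREBPβ line it ranged from 6.51 to 7.26 in WT (median 6.97) and from 7.54 to 8.33 in KO (median 8.02). The difference that chose it was 1.08 ± 0.12, or 30.5% of the one in total KO. None of the 4 groups overlapped any other for this gene. Their order, from low to high, was total-line WT, ChREBPβ-line WT, ChREBPβ KO and total KO.

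Prr32 was the least certain of the 5. It ranged from 4.95 to 6.26 in total-line WT (median 5.63) and from 5.28 to 7.53 in total KO (median 6.91), and the groups overlapped. The difference was 0.93 ± 0.29, a 1.90-fold higher intensity (limma adjusted p = 0.00944), with 6 of 8 KO arrays above the WT mean and an exact permutation p of 0.0188. The other 2 KO arrays, at 5.28 and 5.49, lay within the WT range, and so did a KO array above the WT mean, at 6.08. With the array slide as a block the difference was 0.60 and the limma adjusted p 0.142, so the call did not hold there. In the ChREBPβ line Prr32 ranged from 6.30 to 8.27 in WT (median 6.67) and from 7.62 to 8.56 in KO (median 8.44), with a difference of 1.32 ± 0.29. Every ChREBPβ-line WT array lay above every total-line WT array.

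**Figure D3:**
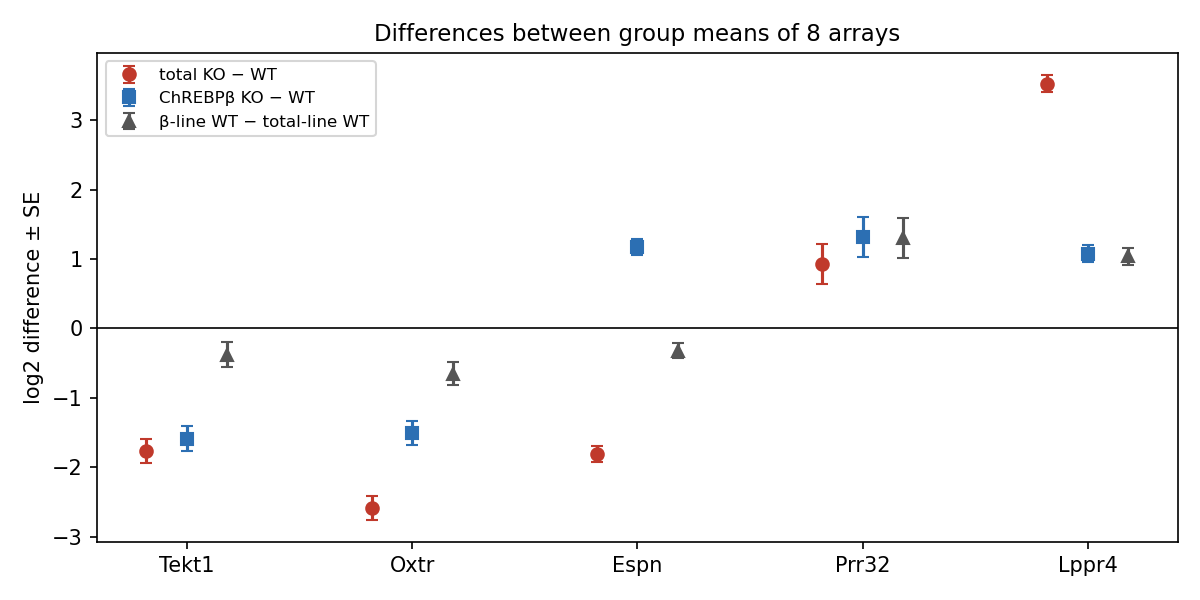
Log2 difference ± SE (vertical axis) between group means of 8 arrays for each gene, with circles for total KO minus WT, squares for ChREBPβ KO minus WT and triangles for ChREBPβ-line WT minus total-line WT. Espn shows KO effects of opposite sign, its total KO point resting on a group with 2 of 8 arrays well above background, and Prr32 and Lppr4 show differences between the WT groups of about the size of their ChREBPβ KO effects.

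The WT groups of the lines also differed for these genes, for Prr32 by more than its total KO effect. As a description, since the ChREBPβ-line WT arrays entered the choice, ChREBPβ-line WT was above total-line WT by 1.30 ± 0.29 for Prr32 and by 1.04 ± 0.12 for Lppr4. It was below it by -0.65 ± 0.17 for Oxtr, -0.38 ± 0.18 for Tekt1 and -0.32 ± 0.11 for Espn, with overlapping arrays. The mouse line and anything else that differed between the lines cannot be told apart here. The skeletal muscle list also differed between the lines, as given above. With the muscle and liver list means as covariates the WT difference was 1.71 for Prr32, 0.69 for Lppr4 and -0.32 for Espn. It was -0.11 for Oxtr and 0.03 for Tekt1, and the part of muscle in these differences was not tested.

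Markers of other cell types were read beside the 5 genes within the total line. None of 10 skeletal muscle markers and none of 7 measured liver markers was called by limma. An unadjusted limma p under 0.05 was reached by 0 in each list. Their differences ran from -0.30 (Myh1) to 0.29 (Myh4) for muscle and from -1.88 (Alb) to 0.61 (Serpina1c) for liver. Both lists varied widely between arrays, so the lack of calls does not show that KO and WT were alike. With the list means as covariates the total KO differences of the 5 genes ran from -2.63 for Oxtr to 3.52 for Lppr4, all called. Macrophage markers were lower in total KO for 5 of 6, Mrc1 most at -1.04 (limma adjusted p = 9.81e-08), and the list mean was 9.51 to 9.88 in KO against 9.95 to 10.7 in WT. Of 7 general adipocyte markers 5 were higher, and the list mean was 14.2 to 14.4 in KO against 13.9 to 14.1 in WT. Of 10 brown adipocyte markers 4 were higher and 2 lower. Of the remaining lists, 1 of 7 lymphocyte, 1 of 7 nerve, 2 of 6 smooth muscle, 3 of 5 endothelial and 0 of 4 erythroid markers were called, the last with 2 at an unadjusted p under 0.05. For every list the share to set beside these counts is the 44.1% of all genes called in total KO. The part of these cell types in the 5 genes' changes was not tested, and in whole tissue fewer cells of a type and less RNA per cell cannot be told apart.

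Arrays had been washed in 4 batches, each with arrays of all 4 groups. For every one of the 5 genes, both KO differences had the same sign in each batch as over all arrays. In the ChREBPβ line the choice had required every KO array on one side of the WT mean, so that agreement was largely fixed by the choice. In total KO they ran from -3.39 to -1.96 for Oxtr, from -2.30 to -1.52 for Tekt1, from -2.01 to -1.66 for Espn and from 3.35 to 3.75 for Lppr4. For Prr32 they ran from 0.32 to 1.19, the highest being in batch 1, which held 3 of the 8 KO arrays.

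**Figure D4:**
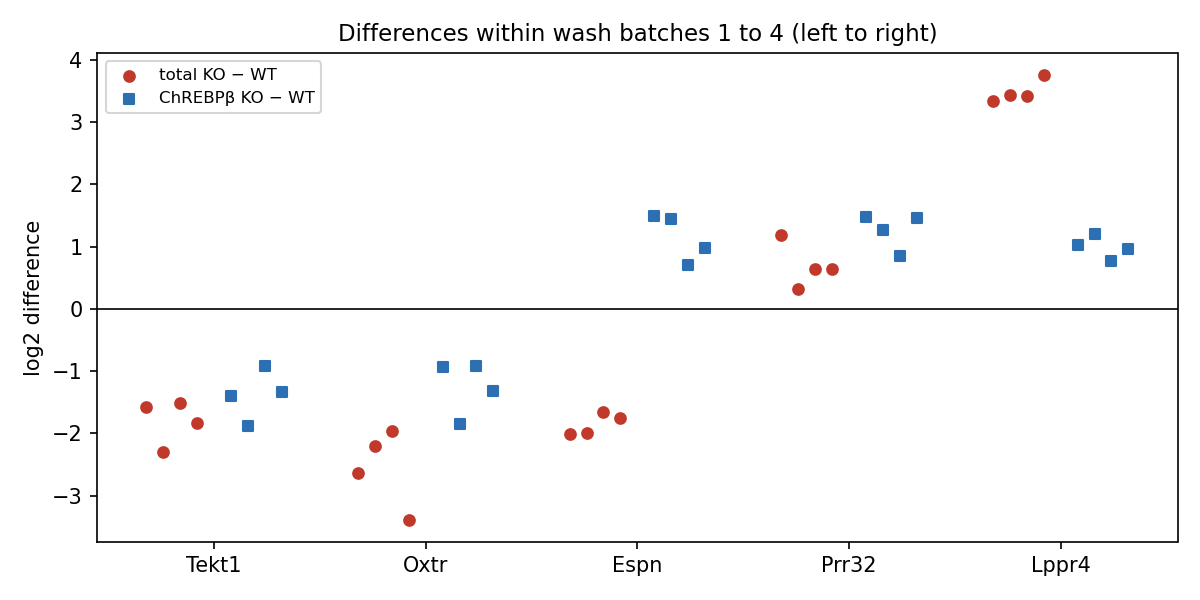
Log2 difference between KO and WT means (vertical axis) within wash batches 1 to 4, left to right for each gene, with circles for total KO and squares for ChREBPβ KO, from 1 to 3 arrays per group and batch. No gene changed sign between batches, which for ChREBPβ KO was largely fixed by the choice, and Prr32 in total KO lay nearest to 0, at 0.32 in batch 2.

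The genes related to each gene by function were read in total KO by their brightest probe. The axoneme list, genes of motile cilia, had 12 of 23 genes measured, with 1 higher, 1 lower and 10 not called, or 16.7% called beside 44.1% of all genes. The other tektins measured were Tekt2 at 0.13 ± 0.12 (limma adjusted p = 0.415) and Tekt4 at 0.02 ± 0.05 (limma adjusted p = 0.799). Tekt3, Tekt5 and Foxj1, the master regulator of motile cilia, were too dim to be kept. The called genes were Dnai1, a dynein chain, at 0.36, and Rfx3, a ciliary transcription factor, at -0.36. The median of the list was 0.04, beside 0.01 over all genes.

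The oxytocin and vasopressin signalling list had 17 of 20 genes measured, with 2 higher, 9 lower and 6 not called. Avpr1a, the vasopressin receptor closest to Oxtr that was measured, fell by 0.75 (limma adjusted p = 7.32e-05) and stood at 0.15 in ChREBPβ KO. Avp, Avpr1b and Avpr2 were too dim to be kept. Oxt, the gene of the hormone itself, was at 0.10 (limma adjusted p = 0.201). Downstream of the receptors Gnaq, the Gq subunit, fell by 0.39 and Arrb1, which ends receptor signalling, by 0.76, while Plcb3, a phospholipase that Gq activates, rose by 0.59 and Itpr2, a calcium release channel, by 0.84. The median of the list was -0.15, and 64.7% of it was called beside 44.1% of all genes.

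The actin bundle list, genes of microvilli and stereocilia, had 21 of 25 genes measured, with 5 higher, 1 lower and 15 not called, or 28.6% called. Vil1, which encodes villin, a protein that bundles actin in microvilli, rose by 2.05 ± 0.17 (limma adjusted p = 1.38e-11) and was the only gene of the 4 lists past a difference of 1. Its mean level was 6.22 in total-line WT and 8.27 in total KO, against 5.67 and 5.90 in the ChREBPβ line. Espnl, the relative of Espn, was at -0.02 ± 0.06 (limma adjusted p = 0.851). The median of the list was -0.02.

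The lipid phosphate phosphatase and lysophospholipid list had 18 of 22 genes measured, with 4 higher, 4 lower and 10 not called, or 44.4% called. Of the relatives of Lppr4, Lppr2 was at -0.15 ± 0.08 (limma adjusted p = 0.144) and Lppr3 at 0.02 ± 0.13 (limma adjusted p = 0.903), while Lppr1 and Lppr5 were too dim to be kept. Enpp2, which encodes autotaxin, the enzyme that makes lysophosphatidic acid, rose by 0.86 and stood at 0.42 in ChREBPβ KO. Ppap2b, an ectophosphatase of such lipids, fell by 0.62. The median of the list was 0.04.

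**Figure D5:**
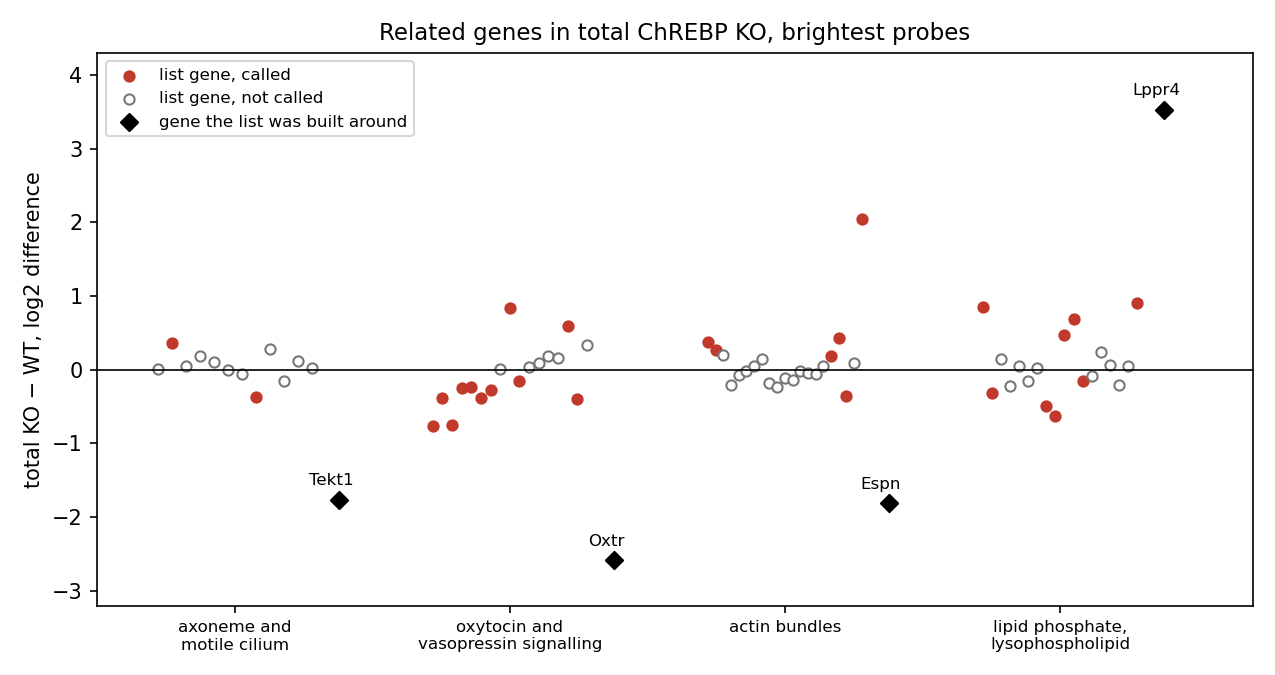
Total KO minus WT, log2 difference (vertical axis), of the brightest probe of each measured gene in 4 lists, with filled points for genes called by limma, open points for genes not called and diamonds for the gene each list was built around. Each of the 4 diamonds lay farther from 0 than every other gene of its list except Espn, which Vil1 passed in the opposite direction.

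The genes whose brightest probes followed each of the 5 most closely over the 32 arrays were found as a description. The points are group differences as much as single mice, and the arrays share their batches. Tekt1 went with Oxtr (Pearson r = 0.92), Vps37d (r = 0.90) and Gata6 (r = 0.90). Oxtr went with Vps37d (r = 0.93), Cables1 (r = 0.93) and Tekt1. With the group means removed, r was 0.22 for Oxtr with Vps37d, 0.24 for Oxtr with Cables1 and 0.24 for Tekt1 with Vps37d. It was 0.66 for Tekt1 with Gata6, and the pair Tekt1 and Oxtr is taken up below. Vps37d, a gene of an endosomal sorting complex, was also the lowest of all genes that met the choice rule in ChREBPβ KO, at -2.39, and was at -2.71 in total KO.

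Espn was followed by Fbxw4 (r = 0.96), Mib2 (r = 0.94) and Eif4e2 (r = 0.93). Fbxw4, which encodes an F-box protein, shared its opposite directions, with -1.43 in total KO and 0.73 in ChREBPβ KO, and Mib2, a ubiquitin ligase gene, was at -0.69 and 0.58. Lppr4 was followed by Slc40a1 (r = 0.97), the gene of the iron exporter ferroportin, and by Ndn (r = 0.97) and Vipr2 (r = 0.96), a receptor gene for vasoactive intestinal peptide. Slc40a1 was at 3.05 in total KO and 0.92 in ChREBPβ KO, and Vipr2 at 2.95 and 1.07. Prr32 was followed by Pkp2 (r = 0.92), Arhgef2 (r = 0.92) and Hspa12a (r = 0.92). With the group means removed, r ran from 0.43 (Mib2) to 0.70 (Fbxw4) for Espn and from 0.42 (Ndn) to 0.57 (Slc40a1) for Lppr4. For Prr32 it ran from 0.78 (Arhgef2) to 0.80 (Hspa12a).

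Whether the 5 genes varied together among mice of a group was asked after the group means had been removed, for 10 pairs over 32 arrays. None of the pairs passed adjustment, and 2 had an unadjusted permutation p under 0.05. The closest was Tekt1 with Oxtr, with a Pearson r of 0.57 (permutation p = 0.00964, adjusted p = 0.0964) and a Spearman rho of 0.27 (permutation p = 0.192, adjusted p = 0.384). Without the 2 arrays farthest from the median of Tekt1, r was 0.24, so much of the pooled relation came from those arrays. They were total-line WT replicate 1 and ChREBPβ-line WT replicate 7, both of wash batch 3, and each was also lowest of its group for Oxtr. The shuffles did not hold the batch fixed, and the part of batch in this relation was not tested. Within the groups r was 0.61 in total-line WT, -0.67 in total KO, 0.86 in ChREBPβ-line WT and 0.61 in ChREBPβ KO.

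The genes next to the 5 on the chromosome were read to see whether the differences reached beyond each gene. In total KO 44.1% of all genes were called, so a called neighbour does not by itself show this. Palmd, beside Lppr4, rose by 0.66 in total KO (limma adjusted p = 2.80e-07) and stood at 0.43 in ChREBPβ KO. Rad18, beside Oxtr, fell by 0.23 (limma adjusted p = 0.0085) and stood at 0.01 in ChREBPβ KO. The other neighbours measured, Fbxo39, Smtnl2, Cav3, Tnfrsf25, Hes2 and Dcaf12l1, lay between -0.41 and 0.14 in total KO and were not called, and the remaining neighbours, Actrt1 and Plppr5, were not measured.

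Because Tekt1 and Oxtr were low in both KO groups, the 250 bases before their annotated starts were searched on both strands, from RefSeq on GRCm38.p6. The E-box CACGTG was found in the Oxtr window, 43 to 38 bases before the start, and in none of the windows of the other 4 genes, beside 6.02% of the 32851 windows of all genes. The carbohydrate response element of ChREBP is built from a pair of E-box-like sequences. The Oxtr window held 1 full match, and a pair was not searched for. The Oxtr window lies at chr6:112489826-112490075 on the minus strand and is printed in the sense of the gene, with the E-box in capitals.
Oxtr window: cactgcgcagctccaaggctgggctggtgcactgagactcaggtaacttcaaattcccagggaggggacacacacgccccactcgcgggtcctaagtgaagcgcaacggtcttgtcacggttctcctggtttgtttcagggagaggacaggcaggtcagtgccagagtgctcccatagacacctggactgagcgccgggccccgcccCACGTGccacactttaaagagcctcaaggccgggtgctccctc
The Tekt1 gene has 2 such windows, and the one at chr11:72361883-72362132 on the minus strand held GTTGCCAT, letters of the motif bound by RFX factors that act on ciliary genes, 15 to 8 bases before the start. That motif was searched only after the sequence had been read. It was in 1.12% of all windows and in none of the other 4 genes' windows, and it is printed in capitals.
Tekt1 window: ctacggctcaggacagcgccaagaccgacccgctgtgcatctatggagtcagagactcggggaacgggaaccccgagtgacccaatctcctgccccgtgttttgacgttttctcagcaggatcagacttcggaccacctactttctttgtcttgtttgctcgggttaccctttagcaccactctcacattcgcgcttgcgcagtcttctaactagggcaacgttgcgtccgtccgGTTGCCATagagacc
A match is a description of letters, and says nothing of a factor being bound.

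The values at the edge of the choice were close to each other. Among the highest in ChREBPβ KO, Lppr4 was the last inside, at 1.08, and Vipr2 the next outside, at 1.07. Among the lowest, Mlxipl itself was the last inside, at -1.50, and Pdzk1ip1 the next outside, at -1.41.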

How the data were processed

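The authors deposited Agilent Feature Extraction 10.10.1.1 scanner files, whose median pixel intensity per spot is not normalised, and a table of log2 values that their methods describe as filtered on spot flags, quantile normalised and summarised by the median over copies of a probe. That procedure was repeated here from the intensity values deposited by the authors. Spots had to be detected clearly over background on no fewer than 26 of 32 arrays, or on 6 arrays of a group. The resulting log2 values differed from the deposited log2 values by 0.00298 on average. Arrays have no read depth, and their number limits the precision.

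Probes were fitted with limma 3.58.1 (R 4.3.3) over all 32 arrays with 4 group means, two-sided, Benjamini-Hochberg adjusted over all 37306 probes and called under 0.05. The fit was tested on simulated data. A gene was read by its brightest probe. Exact permutation tests used all 12870 splits of 16 arrays. Permutations of pairs used 100000 shuffles within groups. Whether arrays of a group came from separate mice is not stated per array in the labels, and p-values measure the spread between arrays.

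Named were all probes of the 5 genes, Mlxipl, close relatives, list genes called in total KO with an absolute difference of at least 1, the 3 genes most correlated with each member over the arrays, and the genes at the edge of the choice (called in ChREBPβ KO, every KO array on one side of the WT mean, clone names left out). Other list genes, neighbours and markers were named after their values were seen. The members and lists were chosen with earlier results of these data known. Alternatives were other scalings, filters, blocks, array weights, the deposited table, covariates, own groups only and leaving out each array. Probe names were matched to RefSeq on GRCm38.p6 for current symbols and neighbours. The sequence and position of the Lppr4 probe are not reported here. The relation of Agilent mm9 positions to exons was not analysed here.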

Additional observations from a re-analysis of the deposited data

Results flagged for a closer look

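The KO effects on Espn had opposite signs on each of its 3 kept probes, with every total KO array below its WT mean and every ChREBPβ KO array above its own. The effect in ChREBPβ KO exceeded that in total KO by 2.99 on A_55_P1997651, by 2.76 on A_66_P108003 and by 1.50 on A_52_P469345. These sizes have no exact value, because 2, 0 and 0 of the 8 total KO arrays were well above background on these probes, and on A_55_P1997651 the size was 1.91 with normexp and 4.81 with the processed signal. The difference was not tested, since it contains the values that chose the gene.

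Of 28 sets of 8 arrays (7 probes in 4 groups), 2 had an array far from the rest, and chance flags about 1 in 20 such sets. On Espn probe A_52_P469345, ChREBPβ KO replicate 3 was highest at 6.39 against 5.98 for the next array, a gap of 0.695 of the group's range. On Espn probe A_55_P1997651, total-line WT replicate 4 was highest at 6.93 against 6.63, a gap of 0.584 of the range.

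The Espn probe that was left out for dimness, A_55_P2630002, was well above background on 2 ChREBPβ KO arrays and on 0 arrays of its WT group.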

How the results depend on the processing

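The total KO calls for Tekt1, Oxtr, Espn and Lppr4 held in every alternative that gave a test, with ranges of -2.21 to -1.25, -2.91 to -2.17, -3.35 to -1.03 and 2.91 to 4.09. Prr32 ranged from 0.60 to 1.25, and its call was lost with slide as a block (0.60, limma adjusted p 0.142, against 0.00136 to 0.142 over its alternatives). The cause was not tested. Espn had no value under the stricter filter on dim probes. Leaving out each array in turn changed no call and no direction of the 5 genes.

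With the processed signal, Tekt1 in ChREBPβ KO was -2.15, Espn 1.46, the difference between the KO effects 4.81 for Espn and -2.89 for Lppr4, and the difference between the WT groups for Lppr4 1.42. With normexp these were -1.08, 0.88, 1.91, -2.02 and 0.74. With the muscle and liver covariates the difference between the WT groups was 0.0295 ± 0.276 (SE) for Tekt1, whose sign turned by less than the SE. The difference was -0.11 ± 0.25 for Oxtr and 0.69 ± 0.18 for Lppr4. It was 1.71 for Prr32 and -0.32 for Espn.

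Within wash batch 1, ChREBPβ KO gave -0.93 for Oxtr and 1.49 for Espn. Within batch 2 it gave 1.45 for Espn, and total KO gave -2.30 for Tekt1 and -2.20 for Oxtr. Within batch 3, ChREBPβ KO gave -0.92 for Tekt1, -0.91 for Oxtr, 0.71 for Espn and 0.78 for Lppr4, and total KO gave -1.96 for Oxtr. Within batch 4, total KO gave -3.39 for Oxtr.

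The number of genes called in total KO was 10810, with 8217 under the slide block and 11489 with array weights as the extremes. When all kept probes of a gene were averaged, 1 axoneme gene was called in place of 2.

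Same-numbered arrays did not deviate together in the total line (correlations -0.30 to 0.08, none of 8 over 0.1), while 6 of 8 were over 0.1 in the ChREBPβ line (-0.20 to 0.53, median 0.25). Since this was not so for every pair and the labels tie no number to a shared litter or day, the arrays were not treated as paired, although structure shared by number in the ChREBPβ line remains possible. With the replicate block Prr32 was 0.93 (limma adjusted p 0.0177), and 10951 genes were called. The block changed no call among the 5 genes.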
